A study of Drosophila melanogaster with 48 samples.

Results

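The brains of Tau-KO male flies taken 2 hr after a blow to the body were compared with the brains of Tau-KO male control flies, gene by gene. The 2 hr group and the control group had 3 libraries each, which makes 6 of the 48 libraries of the series, and the table held 16995 genes. Every gene of the table belonged to the comparison. The rest of the series comprised Tau-KO males 1 hr and 4 hr after injury, Tau-KO females, and w1118 flies of both sexes at the same times. Each library was made from 15 ng of RNA of a single brain of a mated adult fly 10 to 14 days old. Injury was a single strike in a spring-based device (the HIT device) that throws the vial of flies against a pad. After dissection the brains of every group, the controls included, were kept for 2 hr under near-infrared light (NIR) of 750 nm at 100 mW/cm2. The light was thus shared by both sides of the comparison and its own effect was not part of it. The labels give the mutant only as Tau-KO, with no allele, and w1118 is the white-eyed laboratory stock it is set beside.

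Tau is a microtubule-associated protein of axons, and its loss or modification alters microtubule stability and the transport of mitochondria. A mechanical blow to the fly brain is known to start innate immune signalling, in which the Toll and Imd pathways switch on genes of antimicrobial peptides, and to engage stress and cell death pathways. Cytochrome c oxidase, the last complex of the mitochondrial respiratory chain, absorbs near-infrared light, and some wavelengths lower its activity. The study describes the 750 nm used here as one of these. The fly brain preparation also holds the retina and glia and can hold traces of fat body, trachea and antenna, whose transcripts are read together with those of neurons. In bulk RNA of this kind, fewer cells of a type and less RNA per cell cannot be told apart.

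The 3 control libraries differed from the 2 hr libraries in depth or in profile, and this touches every result. Reads assigned to genes numbered 347950, 661659 and 468159 in the 2 hr libraries, against 39517, 891279 and 1198452 in the controls. In control 1, a single read stood for 21.0 CPM (reads of a gene relative to all gene reads of the library, after TMM scaling between libraries), so a count of 0 there allows up to 62.9 CPM (3 reads, counting error only). The chi-square per degree of freedom of a library to its nearest library in the series was 1.46 to 1.55 for the 2 hr libraries, and 1.36, 6.66 and 6.69 in controls 1 to 3. A library with a value over 4 is said here to stand apart, which held for controls 2 and 3 and for 6 other Tau-KO libraries. The low value of control 1 has less weight because few reads give a small chi-square. The gene listed as MRE16, an X-linked long noncoding RNA, alone took 4.17%, 6.93% and 1.71% of gene reads at 2 hr and 1.21%, 9.31% and 16.04% in the controls. Reads were counted near the 3′ end of transcripts, and tau itself was read at 118 to 191 CPM in these 6 libraries (log2 fold change -0.02 ± 0.32 SE, edgeR adjusted p = 0.998), at the level of w1118 (median 152 CPM). Tags at the 3′ end do not show whether the protein-coding part was deleted, so the genotype label was not checked by this gene. The sex labels were not borne out by sex-biased genes. The noncoding RNA roX1, which is made in males, had a median of 995 CPM in the libraries labelled male and 910 CPM in those labelled female, over the whole series. The yolk protein gene Yp1, which is expressed mainly in females, had medians of 1605 CPM and 1948 CPM. Male and female are used here as the labels give them.

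Markers of other cell types were read in both groups. Summed neuronal markers (4 genes) reached 1913 to 2170 CPM at 2 hr and 1307 to 1825 CPM in controls, and fat body markers (5 genes, with Fbp1 at 0) reached 3793 to 4282 CPM and 1965 to 3566 CPM. Antennal markers (4 genes) gave 352 to 411 CPM at 2 hr and 126 to 279 CPM in controls. These 3 sums did not overlap between the groups, as held for 12.8% of all genes tested. None of their members was called, and elav, Syt1, brp, Yp3 and Lsp2 each overlapped through control 1. The antennal sum was mostly Obp83a, at 348 to 382 CPM at 2 hr and 126 to 279 CPM in controls. The antennal markers Orco and lush had 1 read each, in 2 hr replicate 2, and none elsewhere in these 6 libraries. The sums of glial, photoreceptor, muscle, gut and tracheal markers overlapped. Haemocyte markers were at 116 to 150 CPM at 2 hr and 140 to 189 CPM in controls with NimC1 and He at 0, and the 3 accessory gland markers were at 0 throughout. The part of these differences in the results below was not tested.

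No gene differed between 2 hr and control brains once p-values were adjusted over the 5015 genes tested (edgeR quasi-likelihood test, smallest adjusted p = 0.280). DESeq2 called 1 gene. At an unadjusted p under 0.05 and a change over 1 on the log2 scale, 275 genes (5.48%) were called, 156 higher at 2 hr (3.11%) and 119 lower (2.37%). The balance depended on the scaling, with 131 higher and 145 lower under DESeq2 size factors and 148 and 149 by DESeq2. At any fold, 348 genes (6.94%) had p under 0.05, where 250.75 would be the mean number if no gene differed. The 3 libraries of one group lay wholly on one side of the other group in 642 genes (12.8%), with 2 hr above in 421 (8.39%) and below in 221 (4.41%). Of the called genes, 105 higher (2.09% of all tested) and 39 lower ones (0.778%) had no overlap. The median log2 fold change over all tested genes was 0.01. Throughout, a called gene is one past the unadjusted threshold, and none of these calls passed adjustment in edgeR. Without control 1 the count was 582 (347 higher and 235 lower, 1 of them past the adjusted threshold), and 253 of the 275 genes were called again, all in the same direction. Without the libraries that stand apart, which leaves control 1 as the only control, it was 421 (310 higher, 111 lower). It was 135 without 2 hr replicate 3, and 200 to 273 without each of the other 4 libraries in turn.

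**Figure D1:**
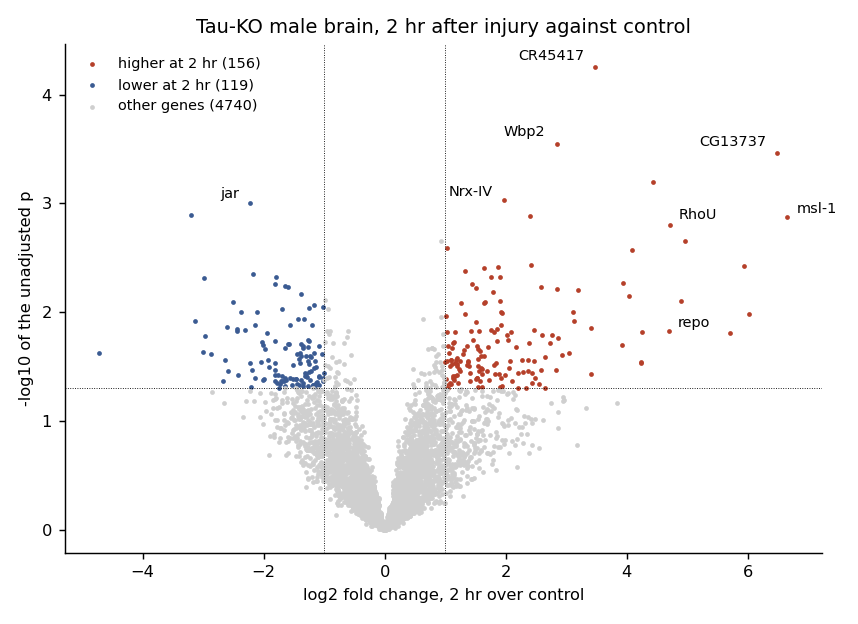
Each point is 1 of the 5015 genes tested, with its log2 fold change (2 hr over control) on the horizontal axis and -log10 of the unadjusted edgeR p on the vertical axis. The 156 genes called higher extend further from 0 than the 119 called lower, with CG13737 at 6.49 and msl-1 at 6.65, both of which had no read in any control library.

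The gene with the smallest p was CR45417, a long noncoding RNA on chromosome arm 3L. It had 33.1, 32.8 and 63.5 CPM at 2 hr (12, 21 and 31 reads), against 0, 3.72 and 3.89 CPM in controls (0, 3 and 4 reads). Every 2 hr library lay above every control (log2 fold change 3.48 ± 0.72 SE, edgeR adjusted p = 0.280). Such non-overlap was a condition for the 15 leading genes of either direction, so it is no added support for them. It stayed called with each of the 6 libraries left out, and it is the gene that DESeq2 called after adjustment. Wbp2, a partner of the Hippo pathway coactivator Yorkie, followed with 74.5, 103 and 92.1 CPM at 2 hr and 41.9, 6.21 and 14.6 CPM in controls (log2 fold change 2.84 ± 0.67 SE). The highest control value of Wbp2 was that of control 1, where it stands for 2 reads.

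Nrx-IV encodes Neurexin IV, a protein of the septate junctions that seal glial barriers. It had 154.5, 116 and 129 CPM at 2 hr and 62.9, 48.4 and 14.6 CPM in controls (log2 fold change 1.97 ± 0.52 SE). Neto, an auxiliary protein of glutamate receptors, was at 52.4, 46.9 and 36.8 CPM at 2 hr and at 21.0, 7.45 and 7.78 CPM in controls. Pooled over depth its ratio was 5.64 (exact 95% interval 3.19 to 10.6). The gene gb (genderblind), which encodes a glial cystine/glutamate transporter subunit, was at 60.7, 50.1 and 86.0 CPM against 21.0, 23.6 and 11.7 CPM (1.87 ± 0.59). Each of these genes kept its call with any 1 of the 6 libraries left out.

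For 3 leading genes no read was found in any control. CG13737 had 7, 7 and 15 reads at 2 hr, CG8944 had 1, 13 and 8, and msl-1 had 6, 8 and 19. With 3 reads over the control group taken as the floor, CG13737 was at least 12.2-fold higher, msl-1 at least 13.9-fold and CG8944 at least 9.26-fold. The protein of msl-1 is a scaffold of the dosage compensation complex, which raises transcription from the single X of males, and msl-1 was the called member of a list of 4 tested dosage compensation genes. The complex's noncoding RNA roX1, at 1220, 945 and 1032 CPM at 2 hr and 818, 1039 and 926 CPM in controls, had overlapping groups (log2 fold change 0.19 ± 0.21 SE, edgeR adjusted p = 0.816). Tau-KO libraries labelled female held as much of it, with 846 to 1372 CPM at 2 hr and in controls.

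Atg16, which helps to attach Atg8 to membranes in autophagy, had 5, 7 and 12 reads at 2 hr and 0, 1 and 0 in controls, a ratio of 30.3 over pooled depth (exact 95% interval 4.94 to 1246). RhoU had 6, 12 and 11 reads at 2 hr and 0, 0 and 1 in controls (ratio 36.6, 6.07 to 1495). Both intervals are wide because of the single control read. Rac2 was measured far more deeply, at 198.7, 142 and 184 CPM at 2 hr and 83.9, 79.4 and 90.5 CPM in controls (log2 fold change 1.04 ± 0.31 SE). Its fold change sat close to the threshold and it lost its call without control 2 or without 2 hr replicate 1, with values of 0.97 to 1.18 over the 6 omissions. The remaining leading genes on this side were CG32581 (now sordd2), CG8468, the peptide hormone gene Lst (Limostatin, which lowers insulin release) and the aldo-keto reductase gene CG10638, with log2 fold changes of 4.09 ± 1.23, 1.64 ± 0.51, 1.32 ± 0.42 and 1.76 ± 0.57 SE. Of these, Lst lost its call without control 2.

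**Figure D2:**
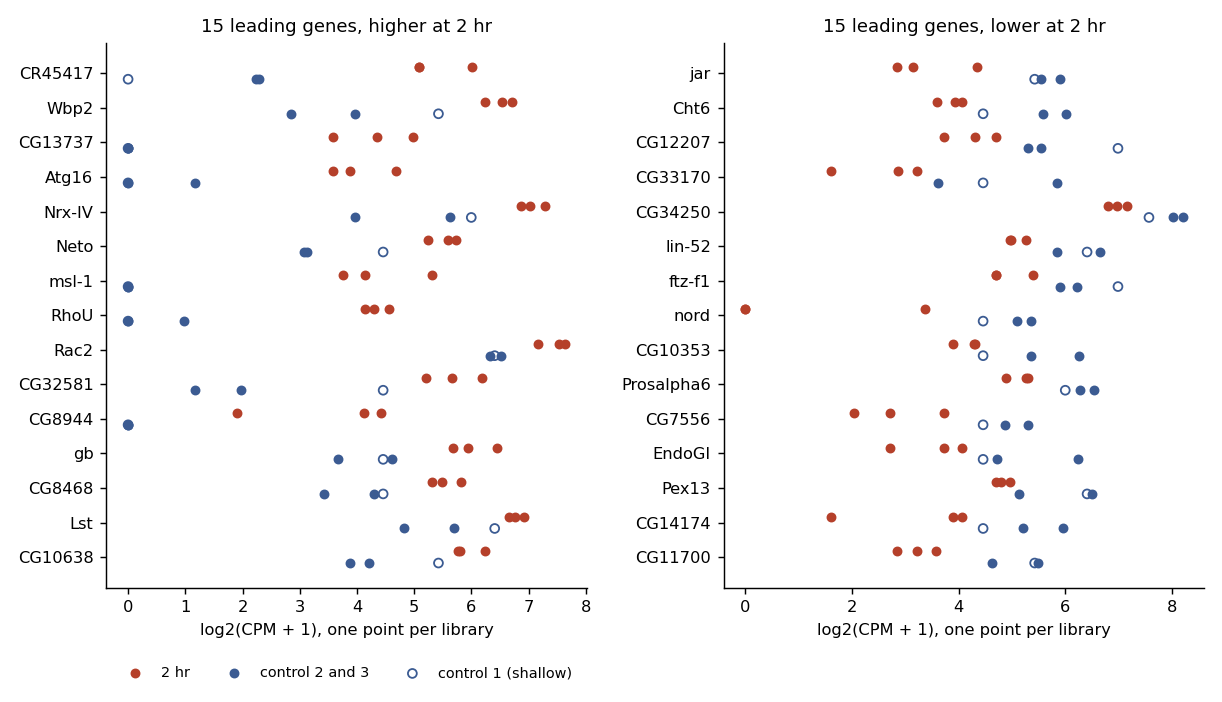
Points are single libraries on a log2(CPM + 1) scale for the 15 leading genes of either direction, ordered by p, out of the called genes with no overlap between groups. Filled controls are replicates 2 and 3 and open circles are control 1, where 1 read is 21.0 CPM. In the left panel controls 2 and 3 lie far to the left for most genes, and in CG13737, msl-1 and CG8944 all 3 controls sit at 0.

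On the lower side, jar had the smallest p. The gene encodes myosin VI, an actin motor that moves toward the minus end of filaments. It was at 19.3, 7.82 and 6.14 CPM at 2 hr and 41.9, 58.3 and 45.7 CPM in controls (log2 fold change -2.22 ± 0.60 SE). Cht6, a chitinase gene, was at 11.04, 15.6 and 14.3 CPM at 2 hr and 21.0, 63.3 and 46.7 CPM in controls (-1.82 ± 0.60). CG12207, the eye colour gene red, was at 24.8, 18.8 and 12.3 CPM against 125.8, 38.5 and 45.7 CPM (-1.60 ± 0.53). The nuclear receptor gene ftz-f1 was at 24.8, 25.03 and 40.9 CPM against 125.8, 73.2 and 58.4 CPM (-1.33 ± 0.49). These 4 kept their call with each library left out. The other 11 leading lower genes lost it without at least 1 library.

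Those 11 genes were CG33170, CG34250, lin-52, nord, CG10353, Prosalpha6, CG7556, EndoGI, Pex13, CG14174 and CG11700. Their log2 fold changes ran from -3.14 in nord to -1.02 in CG34250. The gene lin-52 encodes a subunit of the MuvB complex that represses genes in resting cells, and it was at 30.3, 37.5 and 30.7 CPM at 2 hr and 83.9, 99.3 and 56.4 CPM in controls. Prosalpha6, a subunit of the proteasome core, was at 38.6, 37.5 and 28.7 CPM against 62.9, 91.9 and 76.9 CPM, and Pex13, needed for import into peroxisomes, at 30.3, 25.03 and 26.6 CPM against 83.9, 89.4 and 34.0 CPM. CG34250 was the most abundant of the 11, at 110 to 142 CPM at 2 hr and 189 to 293 CPM in controls, and it was called in 2 of the 6 omissions, with log2 fold changes of -1.11 to -0.87. CG11700 is a polyubiquitin gene with near-identical copies, so its reads are uncertain.

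The sources used here do not give a strand setting for the counting, and several leading genes overlap another gene on the opposite strand in the BDGP6 annotation. CG13737 overlaps dysc, Rac2 overlaps CG42458, CG8468 overlaps Opa1, CG33170 overlaps EMC4, lin-52 overlaps CG15772, nord overlaps Ir60a, EndoGI overlaps twe and CG14174 overlaps nbs. Neto overlaps CG34324, and gb, RhoU, CG10638 and Cht6 overlap the antisense RNA genes CR45209, CR44894, CR43868 and CR45185. The gene jar overlaps a tRNA gene. Among the genes described further on, repo overlaps CG7156 and inaD overlaps RpL23. Depending on that setting, the counts of these pairs may hold reads of the other gene or lack reads set aside as ambiguous. On the same strand, Nrx-IV overlaps CG32099, and ftz-f1 overlaps the long noncoding genes CR45939 and CR45938, which no strand setting separates. Ambiguous reads made up 6.37% to 8.19% of reads in the 2 hr and control libraries.

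The called genes were also set against the libraries outside the comparison. In controls 2 and 3, 154 and 155 of the 156 genes called higher lay below the lowest 2 hr library, and in control 1 it was 107, where 53.04% of all tested genes did. In the other Tau-KO libraries, which were not on either side of the comparison, it was 78 to 122 genes in the 6 that stand apart and 35 to 83 in the 12 that do not. Of all tested genes, 35.8% to 47.3% lay below the 2 hr range in those 6 libraries and 20.1% to 37.2% in the 12. For the 119 genes called lower, 114 and 117 lay above the highest 2 hr library in controls 2 and 3, 43 in control 1, 34 to 104 in the 6 and 27 to 82 in the 12. Of all tested genes, 27.4% lay above the 2 hr range in control 1, 33.2% to 38.8% in the 6 and 20.3% to 30.3% in the 12. In 2 of the 6 the lower genes were under the share of all genes, with 28.6% against 33.2% in 4 hr male replicate 2 and 31.9% against 34.5% in female control 2. Among the 12, they were under it in 4 hr male replicates 1 (25.2% against 30.3%) and 3 (22.7% against 27.9%). The higher genes were under their share in 4 hr male replicates 1 (34.6% against 37.2%) and 3 (22.4% against 31.7%). This also held in replicate 1 of 1 hr males (22.4% against 24.5%) and of 1 hr females (24.4% against 25.3%). The genes were called through the same 2 hr values that set the range. Shares over those of all genes are therefore favoured by that choice in any library. The part in the calls of the difference between libraries that stand apart and the others was not tested. The only control that does not stand apart is control 1, which is too shallow for its profile to be established. The library difference therefore cannot be told apart from injury here.

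**Figure D3:**
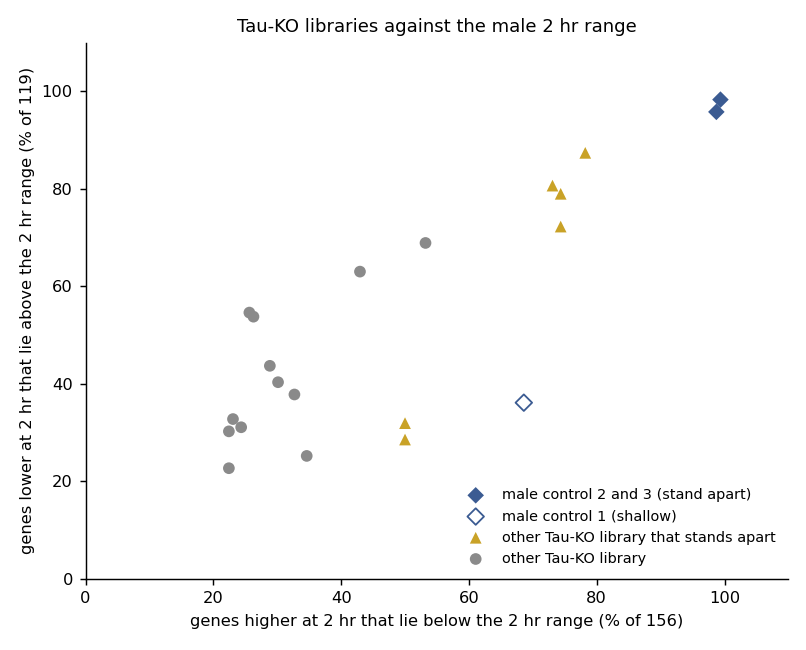
Each point is 1 Tau-KO library other than the 2 hr male libraries, placed by the percent of the 156 higher genes lying below the 2 hr range (horizontal) and of the 119 lower genes lying above it (vertical). Male controls 2 and 3 sit at the top right by construction, and 4 other libraries that stand apart, drawn as triangles, lie nearest to them. The genes were called through the same 2 hr values that set the range, which favours high shares in every library.

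Without the libraries that stand apart, control 1 was the only control. All 30 leading genes kept their direction, which their choice had set in advance, since it required control 1 on that side. Of 36 called list members fitted, 28 kept their direction, counted against 0. CR45417, Nrx-IV, msl-1 and Prosalpha6 among them are leading genes, so their direction was set in the same way. The others were called with control 1 in the fit, so their count is no separate check. The median of all tested genes moved to 0.40 in that fit, so its fold changes are read against 0.40 and not against 0.

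The gene lists were read next, by function. They held 38 called members, and CR45417, Nrx-IV and msl-1 were the 3 that kept their call in all 6 omissions. Each list is given with its called members out of those tested, beside 3.11% higher and 2.37% lower over all genes, and with its median log2 fold change beside 0.01 over all genes.

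Innate immunity showed few calls. Of 11 tested antimicrobial peptide genes, none was higher and Def (defensin) was lower, at 2.76, 4.69 and 0 CPM at 2 hr and 0, 13.7 and 37.0 CPM in controls. The list's median was 0.26. Mtk (metchnikowin), at 201, 211 and 159.7 CPM at 2 hr and 62.9, 119 and 127 CPM in controls, did not overlap between groups but missed the threshold (log2 fold change 0.74 ± 0.38 SE, edgeR adjusted p = 0.686). Drs (drosomycin), the most abundant, was at 369 to 538 CPM against 336 to 432 CPM (0.12 ± 0.32). Of 27 genes of the Toll, Imd and JAK-STAT pathways, PGRP-SB1, a secreted enzyme that degrades peptidoglycan, was the called member. It was at 77.3, 64.1 and 77.8 CPM at 2 hr and 0, 45.9 and 26.3 CPM in controls (1.18 ± 0.50). Rel, the NF-kappaB factor of the Imd pathway, was at 108, 128 and 117 CPM against 125.8, 23.6 and 83.7 CPM, and its groups overlapped (0.89 ± 0.46). No heat shock protein or chaperone gene was called among 15.

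Glial and neuronal genes differed singly. In the glial list 2 of 26 genes were higher, Nrx-IV and repo, and none lower, with a median of -0.06. The transcription factor Repo is present in nearly all glia. It had 8, 16 and 11 reads at 2 hr and 1, 0 and 0 in controls, a ratio of 44.2 (exact 95% interval 7.43 to 1794). In CPM this was 22.1, 25.03 and 22.5 at 2 hr against 21.0, 0 and 0, so control 1, with 1 read, was close to the 2 hr level and the 2 controls that stand apart were at 0. In the other Tau-KO males repo was also at 0 in the libraries that stand apart at 1 hr and 4 hr, and at 13.8 to 29.4 CPM in the 4 that do not. Tau-KO females did not repeat this. Their libraries that stand apart were at 42.7 CPM (2 hr replicate 1) and 3.53 CPM (control 2). The other female 2 hr and control libraries were at 7.93 to 23.4 CPM. No pan-neuronal or synaptic gene was called among 26 (median 0.11), and no transmitter gene among 23 (median -0.08).

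Of 28 neuropeptide genes 2 were lower, and the median was -0.34. SIFa had 2, 1 and 0 reads at 2 hr and 0, 13 and 27 in controls, and Dsk, the cholecystokinin-like sulfakinin gene, was at 27.6, 26.6 and 6.14 CPM against 0, 65.8 and 108 CPM. Control 1 had no read of either gene, so both groups overlapped. Among 13 activity-regulated genes Hr38, a nuclear receptor gene that is induced by neuronal firing, was higher, at 82.8, 42.2 and 81.9 CPM against 0, 44.7 and 23.3 CPM (log2 fold change 1.17 ± 0.53 SE). It lost its call in 4 of the 6 omissions.

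In the retina, inaD was the called member of 26 phototransduction genes. The protein is the scaffold that holds the light-signalling enzymes and channels together. It was at 179, 299 and 221 CPM at 2 hr and 105, 132 and 106 CPM in controls (log2 fold change 1.01 ± 0.48 SE), and it lost its call in 5 of the 6 omissions. Of 11 clock genes tyf, which promotes translation of the period transcript, was higher, at 102, 92.3 and 86.0 CPM against 41.9, 14.9 and 40.9 CPM (1.66 ± 0.58), and it lost its call without control 2. It overlaps Tip60 on the other strand.

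Mitochondrial genes did not share a direction. Of 15 tested genes of cytochrome c oxidase and its assembly, Cyt-c-p, the electron carrier that feeds the oxidase, was called higher. It was at 281, 134.5 and 266 CPM at 2 hr and 189, 34.8 and 31.1 CPM in controls (log2 fold change 2.21 ± 1.00 SE), and its groups overlapped through control 1. It lost its call in 4 of the 6 omissions. The list's median was 0.03. Among 61 other respiratory chain and ATP synthase genes ND-49, a complex I subunit, was lower (-1.09 ± 0.50), with a median of -0.16. Of 20 genes of mitochondrial dynamics, import and transport, the import chaperone gene Tim9a (-1.32 ± 0.60) and the carrier gene Ucp4A (-1.08 ± 0.50) were lower. The succinate dehydrogenase genes SdhA and SdhB were not called, at 57.9, 31.3 and 14.3 CPM against 62.9, 49.7 and 72.0 CPM for SdhA and at 30.3, 46.9 and 20.5 CPM against 0, 63.3 and 131 CPM for SdhB. No mitochondrially encoded gene was in the table.

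Translation genes lay mostly below 0, with few calls. Of 54 mitochondrial ribosomal protein genes 16 had a positive change and 1, mRpS28, was called, lower (-1.82 ± 0.81 SE, groups overlapping), with a median of -0.42. Of 83 cytosolic ribosomal protein genes 22 had a positive change and RpL23A was lower, at 154.5, 226.8 and 125 CPM at 2 hr and 147, 434.5 and 624.5 CPM in controls, with a median of -0.20. Both medians lay on the other side of 0 without the libraries that stand apart, at 0.92 and 0.67 where all genes had 0.40. The neuropeptide median did so too, at 0.61. Without control 1, in contrast, 6 of 84 cytosolic ribosomal genes were lower and 2 higher (235 and 347 of 5302 genes over all) with a median of -0.47. Among 33 translation factors 1 was higher, listed as Elf (16.6, 17.2 and 22.5 CPM against 0, 7.45 and 2.92 CPM). Elf is an older symbol whose match to a current gene is uncertain.

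The proteasome list had 1 call in each direction among 28 genes. Rpn10, a receptor for ubiquitin chains, was at 168, 111 and 129 CPM at 2 hr and 83.9, 48.4 and 37.9 CPM in controls (log2 fold change 1.51 ± 0.56 SE), while Prosalpha6 was lower as given above. None of 17 vacuolar proton pump genes was called (median -0.22), nor any of 26 antioxidant genes and their regulators (median -0.11).

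In the list of tau, its kinases and the cytoskeleton, 2 of 36 genes were higher and none lower, with a median of 0.01. Both encode subunits of protein phosphatase 2A, an enzyme that removes phosphate from tau in other animals. The regulatory subunit gene tws was at 116, 95.4 and 119 CPM at 2 hr and 83.9, 60.8 and 26.3 CPM in controls (log2 fold change 1.20 ± 0.51 SE). The scaffold subunit gene Pp2A-29B was at 60.7, 59.4 and 61.4 CPM against 21.0, 22.3 and 38.9 CPM (1.02 ± 0.47). The groups did not overlap in either gene. The call of tws was lost without control 3 and that of Pp2A-29B in 5 of the 6 omissions. The tubulin genes alphaTub84D and betaTub97EF were not called, with changes of -0.73 ± 0.63 and -1.53 ± 0.97 SE.

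Among 22 genes of JNK signalling, cell death and wound repair, Timp was higher and Buffy lower. Timp encodes an inhibitor of matrix metalloproteinases and overlaps Syn on the other strand. It was at 46.9, 50.1 and 53.2 CPM at 2 hr and 41.9, 4.97 and 8.76 CPM in controls. Buffy, a member of the Bcl-2 family that regulates cell death, was at 5.52, 7.82 and 10.2 CPM against 0, 34.8 and 28.2 CPM.

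Detoxification genes gave single calls in both directions. Of 26 cytochrome P450 genes, Cyp12b2 was higher, at 33.1, 23.5 and 26.6 CPM at 2 hr and 21.0, 6.21 and 6.81 CPM in controls, and Cyp4e2 was lower, at 16.6, 17.2 and 22.5 CPM against 62.9, 47.2 and 43.8 CPM. Of 15 glutathione S-transferase genes GstZ1 was higher, with 4, 10 and 5 reads at 2 hr and 0, 1 and 0 in controls (ratio 23.98, exact 95% interval 3.81 to 997).

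Other tissues were represented by a handful of calls. The tracheal FGF receptor gene btl was at 69.0, 68.8 and 83.9 CPM at 2 hr and 21.0, 33.5 and 8.76 CPM in controls, and the trypsin gene epsilonTry at 22.1, 32.8 and 30.7 CPM against 21.0, 0 and 8.76 CPM. Both were called higher. The antennal gene a10 was called lower, at 22.1, 15.6 and 14.3 CPM against 62.9, 55.9 and 28.2 CPM. None of 16 fat body genes, 27 muscle genes, 15 haemocyte genes or 9 odorant-binding protein genes was called. Without control 1, 3 of 16 fat body genes, 1 of 17 haemocyte genes and 1 of 9 odorant-binding protein genes were called higher and 2 of 28 muscle genes lower, beside 347 higher and 235 lower of 5302 genes over all. Among the fat body genes the yolk protein gene Yp1 was at 2246, 1836 and 1674 CPM at 2 hr and 1154, 1167 and 911 CPM in controls, with no overlap and a change under the fold threshold (0.84 ± 0.37 SE, edgeR adjusted p = 0.686).

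Long noncoding genes were taken as those listed under CR numbers. Of 68 tested genes 6 were higher (8.82%) and 3 lower (4.41%), with a median of 0.37 and 46 positive changes. Of the 6 higher genes 2 are uncertain members, CR43051, which the BDGP6 annotation gives as the protein-coding gene CG43051, and CR40766, which has no current symbol and lies within E2f1. CR45222 was at 91.0, 100.1 and 141 CPM at 2 hr and 147, 19.9 and 19.5 CPM in controls, so control 1 lay above all 2 hr libraries. CR43051 had 6, 7 and 8 reads against 0, 1 and 0 (ratio 26.5, exact 95% interval 4.26 to 1096). CR44799 had no read at 2 hr and 0, 7 and 4 reads in controls. With 3 reads over the 2 hr group as the floor it was 2.90-fold lower. The exact 95% interval of its pooled ratio reached up to 0.503. Without control 1 the list had 12 higher and 3 lower genes of 74 and a median of 0.52, and without the libraries that stand apart its median was -0.15, against 0.40 over all genes.

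**Figure D4:**
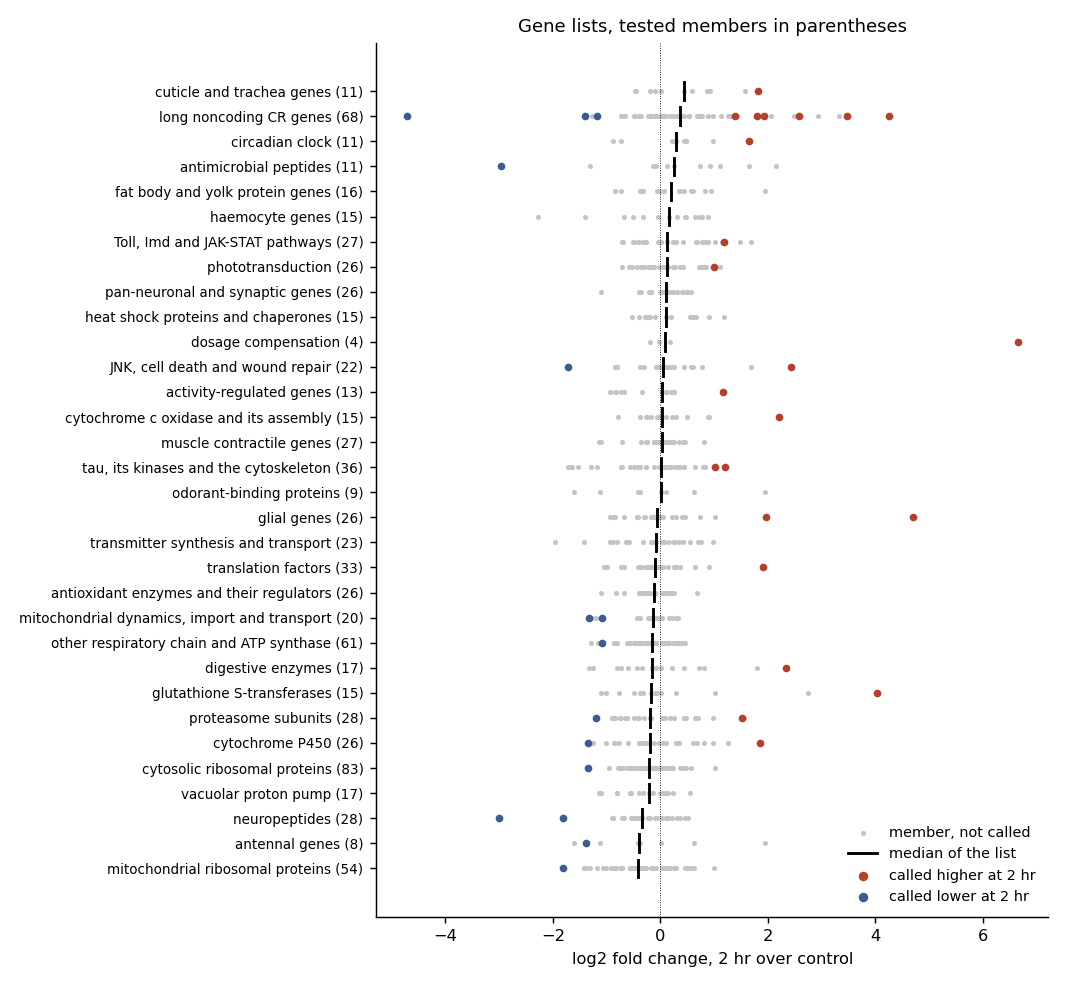
Each row is a gene list with its number of tested members, each point a member's log2 fold change (2 hr over control), and the bar the list's median. Medians lie between -0.42 in mitochondrial ribosomal proteins and 0.44 in cuticle and trachea genes, and called members are single points at the edges of their lists.

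To see what belonged to 2 hr among injured flies without using the controls, the 2 hr libraries were set against the mean of the 1 hr and 4 hr libraries of Tau-KO males. No gene passed adjustment in edgeR (smallest adjusted p = 0.966) or DESeq2, and 40 genes (0.798%) passed the unadjusted threshold, 28 higher (0.558%) and 12 lower (0.239%) at 2 hr. At any fold 65 genes (1.30%) had p under 0.05, where 250.75 would be the mean number with no difference. With DESeq2 size factors the split was 20 higher and 14 lower. Leaving out 4 hr replicate 1 gave 99 genes, while 139 were called when 4 hr replicate 3 was omitted and 126 when all libraries that stand apart were. The smallest p belonged to Tmem18. It was at 19.3, 7.82 and 10.2 CPM at 2 hr, and at 0, 0 and 1.76 CPM at 1 hr and 0 in all 3 libraries at 4 hr (log2 fold change 4.87 ± 1.10 SE). In controls it was at 21.0, 24.8 and 29.2 CPM, so 2 hr lay between the controls and the other times.

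The potassium channel gene Irk2 was also higher at 2 hr. It was at 108, 128 and 104.4 CPM at 2 hr, at 82.3, 70.5 and 104.1 CPM at 1 hr and at 27.5, 8.23 and 53.5 CPM at 4 hr (log2 fold change 1.19 ± 0.35 SE). CG31051 and CG10799 were higher at 2 hr by 1.90 ± 0.55 and 1.43 ± 0.47. On the lower side Pi3K21B, the adaptor subunit of phosphoinositide 3-kinase in insulin signalling, was at 13.8, 29.7 and 24.6 CPM at 2 hr and at 41.3 to 57.6 CPM in all 6 libraries of 1 hr and 4 hr (-1.17 ± 0.47). CR44799, without a read at 2 hr, had 0, 4.27 and 14.1 CPM at 1 hr and 20.6, 27.4 and 3.57 CPM at 4 hr. CHKov1 was lower by -1.76 ± 0.72. CG45080 was lower as well, and this rested on 4 hr replicate 2, with 878 CPM against 41.9 CPM or less in the other 11 male libraries.

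The leading genes of the control comparison were also read at the other times, whose comparisons share the same control libraries. CR45417 was at 49.99, 20.3 and 40.6 CPM at 1 hr, 33.1, 32.8 and 63.5 CPM at 2 hr and 41.3, 24.7 and 71.4 CPM at 4 hr. Wbp2 was at 85.3, 20.3 and 58.2 CPM at 1 hr and 55.0, 126 and 114 CPM at 4 hr. Cyt-c-p was at 300.0, 19.2 and 155 CPM at 1 hr and 406, 107 and 303 CPM at 4 hr. At 1 hr the low value in each of these genes was that of replicate 2, which stands apart. At 4 hr replicate 2 stands apart as well, and it was lowest in CR45417 and Cyt-c-p but highest in Wbp2. For jar the values were 23.5, 38.5 and 15.9 CPM at 1 hr and 41.3, 16.5 and 28.5 CPM at 4 hr. CG10353 was at 2.94, 4.27 and 5.29 CPM at 1 hr, 13.8, 18.8 and 18.4 CPM at 2 hr and 6.88, 5.49 and 7.14 CPM at 4 hr, against 21.0, 75.7 and 39.9 CPM in controls.

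**Figure D5:**
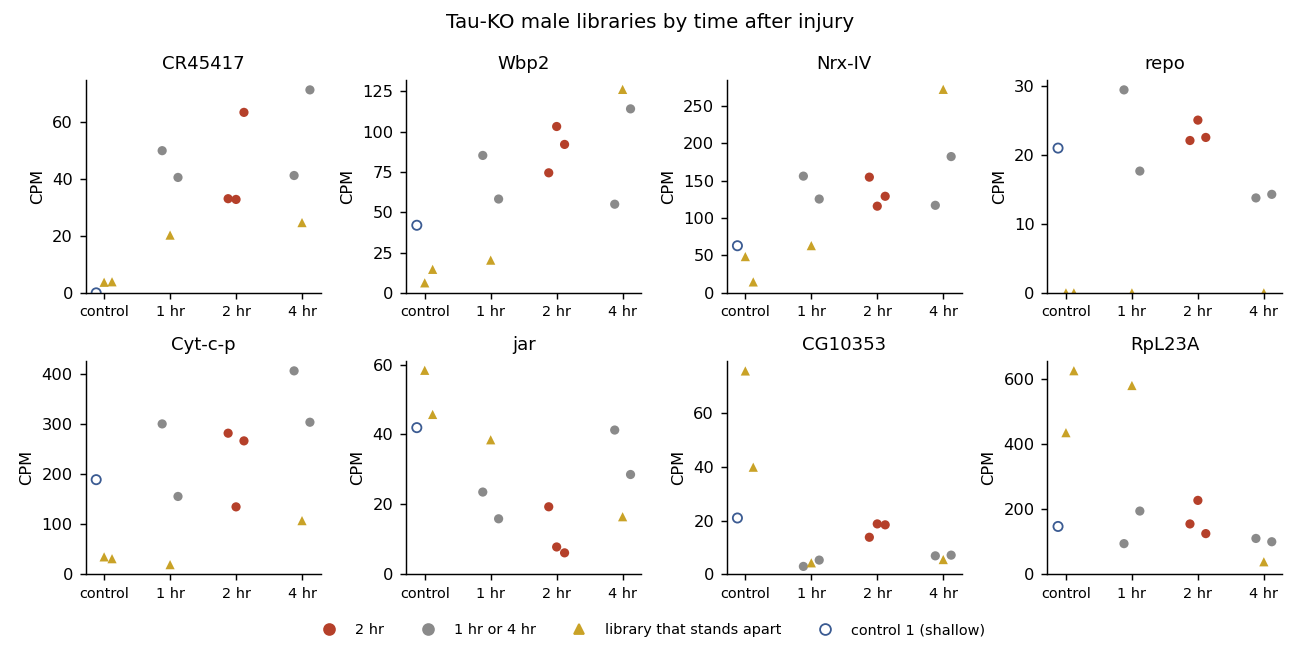
CPM of 8 genes in each Tau-KO male library, from control through 1 hr and 2 hr to 4 hr, with triangles for libraries that stand apart and an open circle for control 1. In repo the 4 triangles of these males sit at 0 while all other male libraries lie between 13.8 and 29.4 CPM.

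The response of Tau-KO males was then compared with that of w1118 males at 2 hr, as the difference of the log2 fold changes in a fit of all 48 libraries. None of the 5821 genes tested passed adjustment (edgeR, smallest adjusted p = 0.956) or was called by DESeq2, and 198 genes (3.40%) passed the unadjusted threshold, 103 with a more positive response in Tau-KO (1.77%) and 95 with a more negative one (1.63%). With DESeq2 size factors the split was 85 and 128. Leaving out w1118 2 hr replicate 1 gave 110 genes, while 310 were called when w1118 2 hr replicate 3 was omitted and 369 when Tau-KO control 1 was. Of the w1118 libraries, control 2 and 2 hr replicate 1 stand apart. Any fold aside, 205 genes (3.52%) had p under 0.05, fewer than the 291.05 that would be the mean number with no difference. The smallest p values on the positive side were those of CG8944, CG13737 and msl-1. In w1118 males the 3 genes without a control read in Tau-KO were present on both sides, msl-1 at 18.8, 13.3 and 12.4 CPM at 2 hr and 22.9, 3.68 and 20.6 CPM in controls.

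On the negative side were CG14174, Hrs, Hdc and CG10778. Hdc encodes histidine decarboxylase, which makes histamine, the transmitter of photoreceptors. It was at 2.69, 6.14 and 4.05 CPM at 2 hr and 0, 23.9 and 16.8 CPM in controls of Tau-KO males, and at 2.68, 19.2 and 7.75 CPM and 1.64, 0.921 and 1.38 CPM in w1118 males (difference -4.76 ± 1.61 SE). Hrs, an endosomal sorting protein gene, had no read at 2 hr in Tau-KO males and 0, 4 and 16 reads in controls.

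Against Tau-KO females at 2 hr, the response of Tau-KO males differed in 628 genes (12.5%) at the unadjusted threshold, 325 more positive (6.48%) and 303 more negative (6.04%). With DESeq2 size factors the split was 279 and 364, and by DESeq2 283 and 370. This comparison rests on the sex labels, which roX1 and Yp1 did not bear out. At any fold 675 genes (13.5%) had p under 0.05. After adjustment CR45417 alone passed (0.0199%). This RNA was higher in libraries labelled male after injury by 3.48 on the log2 scale, while in those labelled female it was at 15.2, 29.3 and 21.3 CPM at 2 hr and 46.1, 102 and 52.9 CPM in controls (log2 fold change -1.58 ± 0.55 SE). The difference of the responses was 5.06 ± 0.90 SE (edgeR adjusted p = 0.0404), and DESeq2 called 2 genes. Female control 2 and female 2 hr replicate 1 also stand apart, and the adjusted count was 0 in 10 of the 12 fits that leave out 1 of the libraries compared. The unadjusted count was 353 without female control 2, 370 without female 2 hr replicate 1, 387 without male 2 hr replicate 3, 408 without male control 3 and 991 without male control 1, and 507 to 942 without each of the others.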

How the data were processed

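RNA of single brains was made into 3′ tag libraries (QuantSeq 3′ FWD) and sequenced on a NovaSeq. Per the submitters' processing notes, CASAVA 1.8.2, STAR 2.4 (genome dm3) and edgeR 3.22.3 were used, and HTSeq gave the authors their gene counts. The deposited table holds raw counts, not normalized, for 16995 genes, and 5 rows that name no gene were left out of library sizes and tests (their share was 33.9% to 39.2% of reads in the 2 hr libraries and 26.6% to 52.8% in the controls). The strand setting of the counting is not given in the sources used here. Over all 48 libraries, gene counts ran from 39517 to 1668925. Columns of per-sample values were all used.

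Counts of the 24 Tau-KO libraries were fitted in edgeR 4.0.16 (R 4.3.3) with 1 mean per group, after filterByExpr and TMM scaling, by the quasi-likelihood test with Benjamini-Hochberg adjustment. The comparison with w1118 used all 48 libraries. A gene was called at a log2 fold change beyond 1 and an unadjusted p under 0.05, or an adjusted p under 0.05 where said. Named genes were the 15 leading by p on either side out of the called genes with no overlap between groups, called members of the gene lists, genes the study's text names where their list is described, label checks, and, in the other contrasts, genes past adjustment or else the 4 with the smallest p in each direction. The members and lists were chosen with earlier results of these data known. Ratios of pooled reads carry exact 95% intervals, which cover counting error only, since these reads have no molecular identifiers in the sources used here. Gene symbols were matched to RefSeq (16920 rows), and overlaps between genes come from the BDGP6 annotation. Alternatives were DESeq2 1.42.0, its size factors, no filter, a likelihood ratio test, a replicate block, other sets of libraries and the omission of each library. The omission of libraries that stand apart was chosen after seeing the data.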

Additional observations from a re-analysis of the deposited data

Results flagged for a closer look

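The long noncoding RNA CR45417 differed in its response between Tau-KO males and Tau-KO females at 2 hr, by 5.06 ± 0.90 SE on the log2 scale (edgeR adjusted p = 0.0404), and it was the only gene of 5015 to do so after adjustment. In males it was at 33.1, 32.8 and 63.5 CPM at 2 hr and 0, 3.72 and 3.89 CPM in controls. In females it was at 15.2, 29.3 and 21.3 CPM at 2 hr and 46.1, 102 and 52.9 CPM in controls, so 2 hr lay above the controls in all libraries labelled male and below them in all labelled female. The sex labels themselves were not borne out by roX1 and Yp1. The difference ran from 4.68 to 5.36 when 1 of the 12 libraries was left out, but no gene passed adjustment in 10 of those 12 fits. The male controls 2 and 3, female control 2 and female 2 hr replicate 1 stand apart from the other libraries in profile, and their part in the difference was not tested.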

How the results depend on the processing

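The count of 275 called genes was 635 without the filter on low counts, 582 without libraries under 100000 reads, 421 without the libraries that stand apart and 9 with the 6 libraries thinned to the shallowest, where 618 genes could be tested. It ran from 135 to 582 when each library was left out in turn. The count after adjustment, 0, was 24 without the filter, 5 by the likelihood ratio test, 1 by DESeq2 and 1 without libraries under 100000 reads, and 0 to 1 over the omissions. For the sex difference the counts were 1159 unadjusted and 123 adjusted without the filter, 991 and 5 without libraries under 100000 reads, 8 adjusted by the likelihood ratio test and 2 by DESeq2. Over the omissions they ran from 353 to 991 and from 0 to 5. For 2 hr against 1 hr and 4 hr the count was 169 without the filter, 65 by the likelihood ratio test, 126 without the libraries that stand apart and 28 to 139 over the omissions. For the difference from w1118 it was 579 (5 after adjustment) without the filter, 370 without libraries under 100000 reads and 110 to 369 over the omissions. The cause of these shifts was not tested.

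Without the libraries that stand apart, which leaves control 1 alone and assumes that it varies like the other groups, the log2 fold change was of opposite sign in Buffy (4.90), CR44317 (6.15), Dsk (6.19), Ucp4A (7.13), ND-49 (1.33), RpL23A (0.29) and CR45222 (-0.33), and in CG45080 (0.17) for 2 hr against the other times. Control 1 had no read of the first 4, so those fitted values are no bounds. All genes of the control comparison shifted by a median of 0.40 in that fit, so RpL23A (0.29) still lay below the typical gene.

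Replicate numbers were not established as pairing the samples. Same-numbered 2 hr and control libraries had correlations of 0.15, 0.41 and -0.40 in their deviations from the group means, over 2000 genes. With 3 libraries per group these values cannot settle whether numbers mark a shared batch. Among Tau-KO libraries, replicate 2 stood apart in control, 1 hr and 4 hr flies of both sexes but not at 2 hr. Male control 3 and female 2 hr replicate 1 stood apart too. With the replicate number as a block the counts were 269 for 2 hr against control, 42 for 2 hr against the other times, 229 for the difference from w1118 and 663 for the sex difference, with 0, 0, 0 and 1 after adjustment.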

Other observations

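Without the filter on low counts, 24 of 10242 genes passed adjustment in edgeR between 2 hr and control brains, 23 of them higher at 2 hr. Among them were Obp99b, an odorant-binding protein gene (log2 fold change 2.00 ± 0.39 SE), beta-Spec, which encodes the spectrin of the membrane skeleton (1.98 ± 0.42), and 3 small nucleolar RNA genes, snoRNA:291 (5.02 ± 1.19), snoRNA:Pi4KIIalpha-a (1.92 ± 0.38) and snoRNA:Psi28S-3305c (4.02 ± 1.02). The noncoding RNA MRE16 was the gene that was lower, by -1.16 ± 0.16. Control 1, where it took 1.21% of gene reads, lay below every 2 hr library (4.17%, 6.93% and 1.71%), so the lower value rests on controls 2 and 3, which stand apart, and with the filter the change was -1.23 ± 0.90 (edgeR adjusted p = 0.701). None of these genes passed adjustment with the filter, and they were chosen after their values were seen.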
